A study of Rattus norvegicus with 12 samples.

Results

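The genes described here encode 10 secreted proteins of the extracellular matrix: the tenascins Tnc and Tnn, the thrombospondins Thbs1, Thbs2, Thbs4 and Comp, periostin (Postn), cartilage intermediate layer protein (Cilp), Sparc and fibronectin (Fn1). They were chosen by gene symbol from a table of 21797 genes, with their FPKM (fragments scaled to transcript length and to the size of the library) in these same libraries known. The levels and differences of the 10 genes are therefore a description, with no p-value of their own. All 10 were among the 12270 genes that entered the fit.

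Matricellular proteins are secreted into the matrix but do little to hold it up. They bind collagen, growth factors and cell-surface receptors, and so change how cells attach, move and respond to signals. Most are scarce in resting adult connective tissue and are made in wounds, in scars and in the tissue that forms around an implant. Fibronectin is in addition a structural scaffold, onto which cells lay collagen and to which several of the other proteins bind.

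The libraries came from rats that carried an implant for 2 or 4 weeks (2W and 4W), from tissue labelled as subcutaneous tissue or muscle. The implant was MFN+GelMA in the test animals and GelMA alone in the controls. GelMA is gelatin carrying methacryloyl groups, which sets to a hydrogel. MFN is not written out in the labels, and the series title speaks of microfiber. The 12 libraries form 4 groups of 3: MFN+GelMA 2W, GelMA 2W, MFN+GelMA 4W and GelMA 4W. The labels name no strain, sex or age and do not tell whether the 3 libraries of a group come from separate animals. The spread between libraries may therefore be partly technical.

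Totals of the deposited count-like columns lay between 11174499 and 13025655 per library. Mitochondrial genes took 17.8% to 32.7% of summed FPKM, with 22.4% to 32.7% in MFN+GelMA 4W libraries and 25.5% to 28.7% in GelMA 4W libraries. Of 12 listed skeletal muscle fibre genes 9 were in the table. Their summed level was 1015 FPKM in MFN+GelMA 2W replicate 2 and 11.4 to 25.7 FPKM in the other 11 libraries, so only 1 library carried much of the labelled muscle. GelMA 4W replicate 2 held the most fat signal (11437 FPKM summed over 8 adipocyte genes), and GelMA 2W replicate 3 the least endothelial signal of its group (123 FPKM over 9 genes). Results are given with all 12 libraries, and the counts also without these 3.

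At both weeks the MFN+GelMA libraries lay wholly above the GelMA libraries for Tnc and Tnn and wholly below them for Postn. The same held for Thbs1 and Comp (above) and Cilp (below). Of all genes tested 27% lay wholly above and 18.6% wholly below at 4 weeks, and 9.7% and 8.48% at 2 weeks. The share that did so at both weeks was not computed. Since the genes were picked on these libraries, nothing is read from how many of them did. Tnn and Postn were past the test's threshold at 4 weeks only, and Tnc at neither week. Thbs1 and Comp were past it at 4 weeks only, and Cilp at both. The stretch of DNA around the start sites of Tnn, Tnc and Postn is shown as an example. The sequences are the RefSeq promoters of the rat build GRCr8, from 250 bases before to 50 after the start, read along the gene's strand, at chr13:74919740-74920039 (Tnn, minus strand), chr5:82476082-82476381 (Tnc, minus strand) and chr2:140677811-140678110 (Postn, plus strand). Capitals mark matches to 6 searched motifs.
Tnn: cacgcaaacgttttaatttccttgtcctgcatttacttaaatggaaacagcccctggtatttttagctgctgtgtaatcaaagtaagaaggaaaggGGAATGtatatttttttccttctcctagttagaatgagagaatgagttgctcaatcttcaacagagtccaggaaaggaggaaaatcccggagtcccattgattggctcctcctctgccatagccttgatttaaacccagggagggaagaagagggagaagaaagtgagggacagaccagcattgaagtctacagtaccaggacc
Tnc: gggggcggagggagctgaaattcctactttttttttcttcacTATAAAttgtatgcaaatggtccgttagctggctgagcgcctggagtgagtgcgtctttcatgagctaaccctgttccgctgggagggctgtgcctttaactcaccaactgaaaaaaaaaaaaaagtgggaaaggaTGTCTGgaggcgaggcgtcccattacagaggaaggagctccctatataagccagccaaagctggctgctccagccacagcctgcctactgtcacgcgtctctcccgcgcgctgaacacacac
Postn: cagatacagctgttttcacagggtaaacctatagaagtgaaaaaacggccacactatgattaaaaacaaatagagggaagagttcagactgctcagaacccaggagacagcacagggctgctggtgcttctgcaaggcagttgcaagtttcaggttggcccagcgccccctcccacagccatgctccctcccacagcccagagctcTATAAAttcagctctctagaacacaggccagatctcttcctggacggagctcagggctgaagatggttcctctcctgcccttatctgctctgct
The capitals in Tnn are a match to GGAATG, the letters that TEAD factors read, and it begins at base -154 from the start. Those in Tnc are TATAAA at base -208 and a SMAD box (CAGACA) on the minus strand at base -72. TATAAA has the letters of a core element near many start sites, but this match lies far from the start. In Postn the capitals are TATAAA at base -44.

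Promoters were found in RefSeq for 8 of the 10 genes (Thbs2 and Fn1 are the other two). Both strands were searched, and none of the 13 matches overlapped another. GGAATG lay in 4 of the 8 (Thbs4, Thbs1, Sparc and Tnn), and in 14.2% of all 33469 promoters of the same length. CAGACA lay in 5 of the 8 (Thbs4, Tnc, Cilp, Sparc and Comp) and in 21.1% of all. TATAAA was found in 2 of the 8 (Postn and Tnc) and in 14.2% of all. The STAT motif TTCNNNGAA was found in 1 of the 8 (Thbs1) and in 8.87% of all. The AP-1 motif TGACTCA (4.63% of all) and the SMAD palindrome GTCTAGAC (0.197% of all) were found in 0 of the 8. A match is a run of letters and not a shown binding site.

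The first question was which of these genes differed between the materials at 4 weeks. The tenascin, thrombospondin and fibronectin genes Tnn, Thbs1, Comp and Fn1 were higher in MFN+GelMA, and Postn, Sparc and Cilp were lower. The fit was limma on log2(FPKM + 1) over all 12 libraries, with p-values adjusted over the 12270 genes and a threshold of 0.05. In it 4 of the 10 were past the threshold as higher and 3 as lower. Of all genes tested 15.3% were past it as higher and 9.27% as lower, and since the genes were picked on these libraries nothing is read from the count. By libraries alone, 6 of the 10 had every MFN+GelMA 4W library above every GelMA 4W library (27% of all tested genes did) and 3 had every one below (18.6%). Thbs2 was the gene whose libraries overlapped. The median log2 fold change of the 10 was 0.70, beside 0.049 over all genes tested.

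At 2 weeks Cilp alone was past the threshold, as lower in MFN+GelMA. Of all genes tested 0.171% were past it as higher and 0.326% as lower. At an unadjusted p under 0.05 there were 6 of the 10, and 14.2% of all 12270 genes. By libraries alone, 5 of the 10 had every MFN+GelMA 2W library above every GelMA 2W library (9.7% of all genes) and 2 had every one below (8.48%). The median log2 fold change of the 10 was 0.56, beside 0.0065 over all genes. Without the 3 libraries that carried muscle, fat or little endothelium, 3 of the 10 were past the threshold at 2 weeks (Thbs2 and Thbs4 higher, Cilp lower), while the number of all genes past it was 386, beside 61 with all 12 libraries. At 4 weeks the same 7 were past it without them, with 3094 of all genes, beside 3013.

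**Figure D1:**
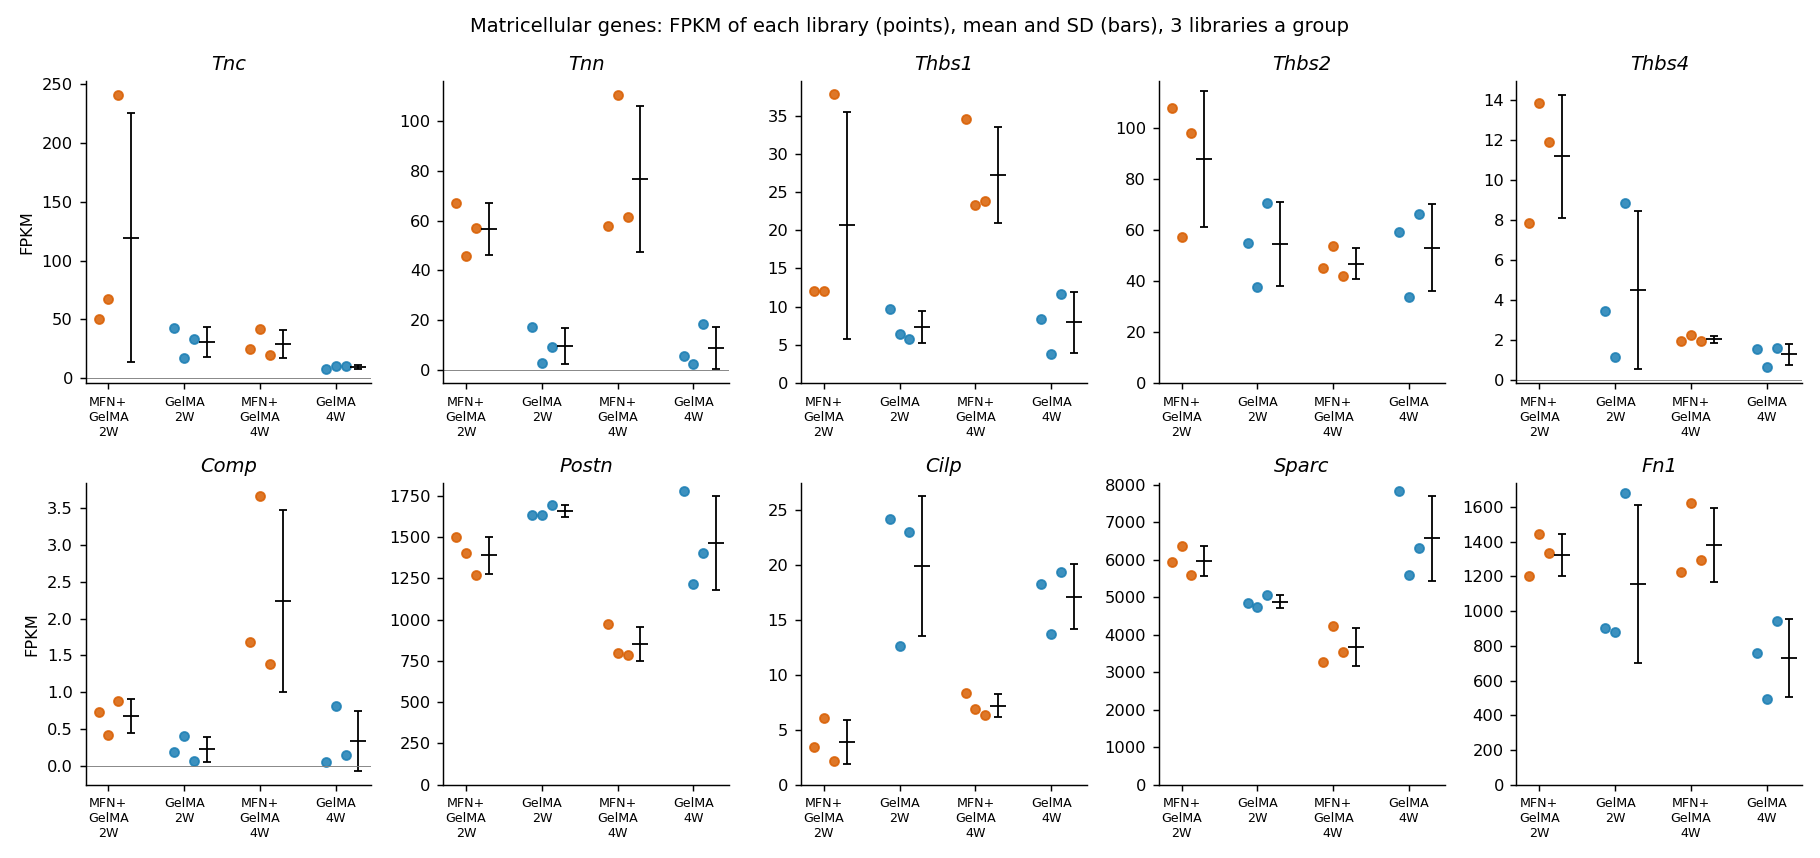
FPKM (y axis, linear, one scale per panel) of the 10 matricellular genes in the 4 groups (x axis), with 1 point per library and the mean ± SD of 3 beside it, MFN+GelMA in orange and GelMA in blue. Tnn lies at 45.8 FPKM or more in every MFN+GelMA library and at 18.3 FPKM or less in every GelMA library.

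Tnn encodes tenascin-W, a tenascin of bone and of tumour and wound stroma that binds integrins containing the alpha-8 chain in mouse cells. Its locus is chromosome 13, 77829381 to 77904096 on the minus strand (rn6, as are all loci below), with the identifier ENSRNOG00000002548. The 3 MFN+GelMA 4W libraries had 57.9, 111 and 61.7 FPKM, against 5.71, 2.15 and 18.3 FPKM in GelMA 4W libraries. At 2 weeks MFN+GelMA libraries had 67.0, 45.8 and 57.0 FPKM, against 17.1, 2.67 and 9.37 FPKM in GelMA libraries. The materials did not overlap at either week, although libraries of 1 group differed widely.

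The log2 fold change of Tnn was 3.33 (SE 0.64) at 4 weeks and 2.69 (SE 0.64) at 2 weeks, the first past the threshold and the second not. It was the largest of the 10 genes at both weeks. The means were 76.8 ± 29.5 FPKM in MFN+GelMA 4W and 8.71 ± 8.47 FPKM in GelMA 4W (SD, n = 3 each), a ratio of 8.82. By mean the groups ran from MFN+GelMA 4W over MFN+GelMA 2W and GelMA 2W to GelMA 4W, and neighbours overlapped except at the step between the materials. The 4-week call held under all 26 settings of the fit. Between weeks the log2 fold change of Tnn was 0.39 (SE 0.64) in MFN+GelMA and -0.25 (SE 0.64) in GelMA, neither past the threshold. With SEs of this size a sizeable change in either direction cannot be told from none.

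Tnc encodes tenascin-C, which appears in healing wounds and loosens cell adhesion to fibronectin (ENSRNOG00000058645, chromosome 5, 79789670 to 79874671, minus strand). In MFN+GelMA 2W it stood at 50.3, 67.5 and 241 FPKM, against 42.5, 17.4 and 33.5 FPKM in GelMA 2W. In MFN+GelMA 4W it stood at 24.9, 42.2 and 19.8 FPKM, against 7.66, 10.8 and 10.6 FPKM in GelMA 4W. The materials stood apart at each week, and MFN+GelMA 2W replicate 3 lay far above the other 11 libraries.

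The log2 fold change of Tnc between materials was 1.65 (SE 0.51) at 2 weeks and 1.43 (SE 0.51) at 4 weeks, neither past the threshold. Without MFN+GelMA 2W replicate 3 the 2-week value was 0.97. Since the fit shares 1 spread over all groups, leaving out that library also put the 4-week difference of Tnc, still 1.43, past the threshold. Tnc was lower at 4 than at 2 weeks in both materials with no overlap of libraries. In MFN+GelMA the time difference was -1.73 (SE 0.51) and past the threshold. Among the MFN+GelMA libraries, dropping 2W replicate 3 made it -1.05, dropping 4W replicate 1 made it -1.66 and dropping 4W replicate 3 made it -1.50, each time not past. The call was also lost with no filter on low values and in a fit of only the MFN+GelMA libraries, with the value still at -1.73. In GelMA it was -1.51 and not past, but past without MFN+GelMA 2W replicate 3.

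The balance of the tenascins also differed between the groups. Tnn over Tnc was 2.33 to 3.11 in MFN+GelMA 4W libraries and 0.199 to 1.72 in GelMA 4W libraries. At 2 weeks it was 0.236 to 1.33 in MFN+GelMA and 0.154 to 0.403 in GelMA. MFN+GelMA 4W was thus the group in which every library held more Tnn than Tnc per length of transcript.

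Thbs1 encodes thrombospondin-1, which binds the receptors CD47 and CD36, restrains vessel growth and can release TGF-beta from its latent form (ENSRNOG00000045829, chromosome 3, 109862116 to 109873466, plus strand). MFN+GelMA 4W libraries had 34.5, 23.3 and 23.9 FPKM, against 8.35, 3.79 and 11.7 FPKM in GelMA 4W libraries. At 2 weeks MFN+GelMA had 11.995, 12.1 and 37.8 FPKM, against 9.70, 6.42 and 5.78 FPKM in GelMA 2W libraries. The materials did not overlap at either week, but at 2 weeks MFN+GelMA replicate 3, which was also the highest for Tnc, lay far above the other 2.

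At 4 weeks Thbs1 had a log2 fold change of 1.75 (SE 0.44), past the threshold, and 1.57 without MFN+GelMA 4W replicate 1, then not past. At 2 weeks it was 1.21 (SE 0.44), not past, and 0.68 without MFN+GelMA 2W replicate 3. Platelets store thrombospondin-1 as protein, which these RNA libraries do not measure. Of 8 platelet markers 3 were tested at 4 weeks and 0 were past the threshold, beside 24.6% of all genes. Their summed level was 193 to 243 FPKM in MFN+GelMA 4W and 265 to 323 FPKM in GelMA 4W, nearly all of it Pf4. The defining markers Ppbp and Gp9 were at or below 0.319 and 0.516 FPKM in every library. The part of platelets in the Thbs1 difference was not tested.

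Thbs2, a close relative whose loss in mice leaves more vessels around implants, overlapped between the materials (ENSRNOG00000010529, chromosome 1, 56653937 to 56683731, minus strand). Its libraries stood at 45.0, 53.6 and 41.7 FPKM in MFN+GelMA 4W, against 59.3, 33.8 and 66.0 FPKM in GelMA 4W. At 2 weeks they stood at 108, 57.3 and 97.7 FPKM in MFN+GelMA, against 54.8, 37.7 and 70.5 FPKM in GelMA. The materials overlapped at both weeks, with log2 fold changes of -0.13 (SE 0.30) at 4 weeks and 0.67 (SE 0.30) at 2 weeks. The lowest MFN+GelMA 2W library was replicate 2, the one with muscle signal. Without the 3 libraries set apart above, the 2-week value was 1.15. By mean, all neighbouring groups of Thbs2 overlapped.

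Thbs1 and Thbs2 therefore stood in different proportion. Thbs1 over Thbs2 was 0.434 to 0.768 in MFN+GelMA 4W libraries and 0.112 to 0.177 in GelMA 4W libraries. At 2 weeks the ratio was 0.111 to 0.387 in MFN+GelMA and 0.0819 to 0.177 in GelMA, with overlap. Such a ratio within a library does not depend on how libraries are scaled.

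Thbs4 encodes thrombospondin-4, found in tendon, muscle and nerve (ENSRNOG00000012471, chromosome 2, 22343726 to 22385855, minus strand). It was a gene of the early time point. MFN+GelMA 4W libraries had 1.93, 2.23 and 1.92 FPKM, and MFN+GelMA 2W libraries had 7.84, 13.9 and 11.9 FPKM. GelMA 4W libraries had 1.56, 0.652 and 1.61 FPKM, and GelMA 2W libraries had 3.46, 1.14 and 8.86 FPKM. The weeks did not overlap in MFN+GelMA and did in GelMA, where the 3 libraries of 2 weeks were widely spread. The highest of all 12 libraries, at 13.9 FPKM, was MFN+GelMA 2W replicate 2, the one with muscle signal.

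The time difference of Thbs4 in MFN+GelMA was -1.98 (SE 0.44) and was past the threshold under all 26 settings, the one without the muscle-bearing library and the other two set apart above included. In GelMA it was -1.03 and not past. The test of whether the time effect differs between materials was not past the threshold for Thbs4 with all 12 libraries. Between materials its log2 fold change was 1.39 (SE 0.44) at 2 weeks and 0.44 (SE 0.44) at 4 weeks, neither past. Of 8 tendon markers 5 were tested. Over time in MFN+GelMA 1 of them was past the threshold as lower (8.11% of all genes) and 0 as higher (11.2%). That one was Thbs3, at 5.51 ± 1.62 FPKM in MFN+GelMA 4W and 28.8 ± 1.73 FPKM in MFN+GelMA 2W (SD, n = 3 each), with a log2 fold change of -2.22. The summed level of the 8 was 82.6 to 100.3 FPKM in MFN+GelMA 4W and 98.5 to 141 FPKM in MFN+GelMA 2W, and Scx, a defining marker, was at or below 0.167 FPKM in every library. The part of tendon or muscle in the values of Thbs4 was not tested beyond leaving out the library with muscle.

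Comp encodes cartilage oligomeric matrix protein, a thrombospondin that helps collagen fibrils assemble (ENSRNOG00000048472, chromosome 16, 20798436 to 20807070, minus strand). It was the lowest of the 10 genes. MFN+GelMA 4W libraries had 1.68, 3.66 and 1.38 FPKM, against 0.0566, 0.809 and 0.152 FPKM in GelMA 4W libraries. MFN+GelMA 2W libraries had 0.730, 0.419 and 0.882 FPKM, against 0.186, 0.410 and 0.0682 FPKM in GelMA 2W libraries. The materials did not overlap at either week, by a narrow margin at 2 weeks.

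Comp had a log2 fold change of 1.25 (SE 0.29) at 4 weeks, past the threshold, and 0.46 (SE 0.29) at 2 weeks, not past. Only its MFN+GelMA 4W libraries reached 1 FPKM, and the highest library of the other groups had 0.882 FPKM. Comp therefore entered the fit only through the group where it was high, and its call is a description. The 4-week call was also made with no filter, and a filter of 5 FPKM left Comp untested. The pseudocount of 1 shrinks the change of so low a gene, and with a pseudocount of 0.1 the 4-week value was 2.70. In replicate 2 of both 4-week groups the conversion to FPKM differed. There 1 unit of the count-like column gave 3.29 times (MFN+GelMA) and 2.37 times (GelMA) the FPKM that it gave in the median library. On the count-like values the MFN+GelMA 4W libraries had 51.9, 34.4 and 42.7, against 1.75, 10.6 and 4.71 in GelMA 4W. The groups again did not overlap, with replicate 2 of MFN+GelMA now the lowest of its group and a log2 fold change of 1.58. None of the other 9 genes had such a library, and 1.14% of all tested genes did.

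Of 8 cartilage markers only Acan, the core protein of aggrecan, passed the filter on low values. It was higher in MFN+GelMA 4W, at 2.06 ± 1.21 FPKM, against 0.0615 ± 0.0882 FPKM in GelMA 4W (SD, n = 3 each), with a limma log2 fold change of 1.46 and adjusted p = 0.00178. Like Comp, Acan passed that filter only through the MFN+GelMA 4W libraries, where it was high, so this call is a description. Col2a1, the defining collagen of cartilage, was listed at 0 in all 12 libraries. The 8 markers summed to 1.97 to 5.35 FPKM in MFN+GelMA 4W and 0.467 to 1.09 FPKM in GelMA 4W, and their part in the Comp difference was not tested.

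**Figure D2:**
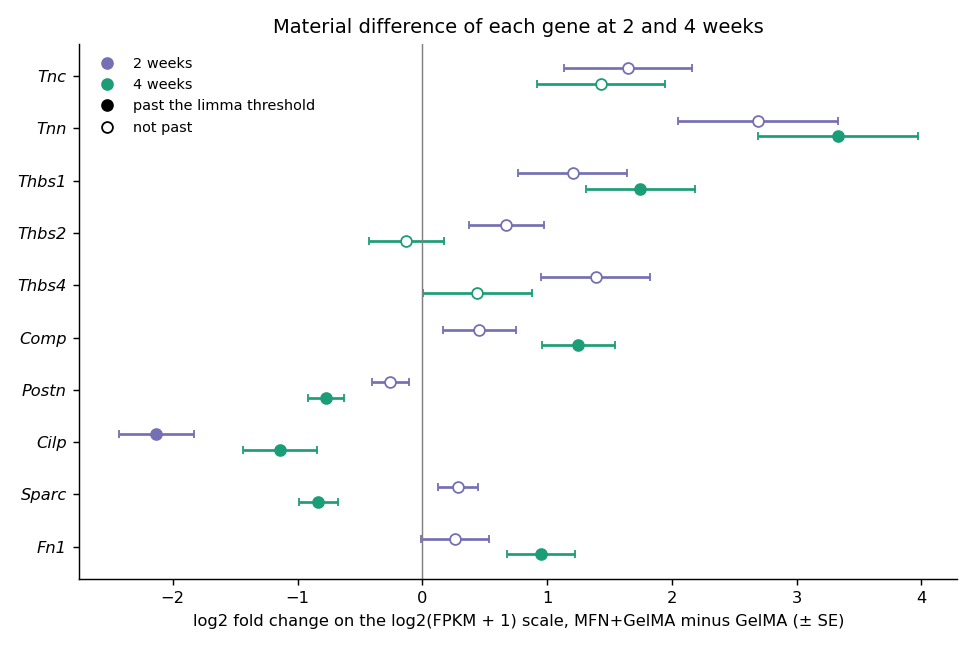
Log2 fold change on the log2(FPKM + 1) scale (x axis, MFN+GelMA minus GelMA, ± SE) of the 10 genes (rows) at 2 weeks (purple) and 4 weeks (green), filled where past the limma threshold. Tnn is farthest right at both weeks, at 2.69 and 3.33, and Sparc changes side, at 0.29 and -0.83.

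Postn encodes periostin, which fibroblasts secrete under TGF-beta and which helps cross-link collagen (ENSRNOG00000012660, chromosome 2, 143656792 to 143688087, plus strand). In MFN+GelMA 4W there were 973, 795 and 787 FPKM, against 1777, 1216 and 1403 FPKM in GelMA 4W libraries. MFN+GelMA 2W libraries had 1497, 1400.1 and 1271 FPKM, against 1634, 1635 and 1696 FPKM in GelMA 2W libraries. The libraries with MFN lay below those without at both weeks, and MFN+GelMA 4W lay below every other library of the series.

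Postn had a log2 fold change of -0.77 (SE 0.15) at 4 weeks, past the threshold under all 26 settings, and -0.26 (SE 0.15) at 2 weeks, not past. In MFN+GelMA Postn was lower at 4 than at 2 weeks by -0.71 (SE 0.15), also past under all 26. Its range over the 12 libraries was narrow, with the highest 2.26 times the lowest, where for Tnn it was 51.6 times. Tnn over Postn, 2 genes that went opposite ways, was 0.0595 to 0.139 in MFN+GelMA 4W libraries and 0.00176 to 0.0130 in GelMA 4W libraries.

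Cilp encodes a matrix protein of cartilage that binds TGF-beta and dampens its signal (ENSRNOG00000029911, chromosome 8, 70760921 to 70775891, plus strand). MFN+GelMA 2W libraries had 3.41, 6.05 and 2.13 FPKM, against 24.1, 12.6 and 22.9 FPKM in GelMA 2W libraries. MFN+GelMA 4W libraries had 8.36, 6.84 and 6.33 FPKM, against 18.3, 13.7 and 19.3 FPKM in GelMA 4W libraries. Every library with MFN was below every library without it, and within MFN+GelMA every 4-week library was above every 2-week library.

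The log2 fold change of Cilp was -2.13 (SE 0.30) at 2 weeks and -1.14 (SE 0.30) at 4 weeks, both past the threshold. The 2-week call was lost without MFN+GelMA 2W replicate 1, at -2.10, and in a fit of only the 2-week libraries. Dropping replicate 3 of MFN+GelMA 4W (-1.07), or replicate 1 (-1.09) or 3 (-1.05) of GelMA 4W, left the 4-week difference not past. The ratio of Cilp means was 0.194 at 2 weeks and 0.420 at 4 weeks. The test of the difference between weeks, 0.99 on the log2 scale, was not past the threshold.

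Sparc encodes osteonectin, a collagen-binding glycoprotein, and was the most abundant of the 10 genes, between rank 7 and rank 22 of all genes by FPKM (ENSRNOG00000012840, chromosome 10, 40742399 to 40764185, minus strand). In MFN+GelMA 4W there were 3264, 4239.6 and 3538 FPKM, against 7824, 5601 and 6311 FPKM in GelMA 4W libraries. MFN+GelMA 2W libraries had 5933, 6377 and 5584 FPKM, against 4855, 4735 and 5069 FPKM in GelMA 2W libraries. The materials stood apart at both weeks and in opposite order.

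The log2 fold change of Sparc was -0.83 (SE 0.16) at 4 weeks, past the threshold under all 26 settings, and 0.29 (SE 0.16) at 2 weeks, not past. The difference between the 2 values was -1.12 (SE 0.22), and Sparc was the 1 gene of the 10 for which this test was past the threshold, as lower. Of all genes tested 9.1% were past it as higher and 4.98% as lower. At an unadjusted p under 0.05 there were 3 of the 10, and 29.5% of all genes. The median of the difference between weeks was 0.16 over the 10 genes and 0.047 over all genes tested. Without the 3 libraries set apart above, Thbs2 and Thbs4 passed as well, as lower, with 1455 of all genes past it, beside 1727 with all libraries.

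Fn1 encodes fibronectin (ENSRNOG00000014288, chromosome 9, 78900102 to 78972965, minus strand). Its locus overlaps that of 1 other gene of the table, AABR07068042.1, which had at most 0.357 FPKM. At 4 weeks Fn1 stood at 1222, 1623 and 1293 FPKM in MFN+GelMA, against 757, 494 and 944 FPKM in GelMA. MFN+GelMA 2W libraries had 1201, 1442 and 1334 FPKM, against 901, 881 and 1680.2 FPKM in GelMA 2W libraries. The materials stood apart at 4 weeks and overlapped at 2 weeks, where GelMA 2W replicate 3, the library with least endothelial signal, was the highest of all 12.

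Fn1 had a log2 fold change of 0.95 (SE 0.27) at 4 weeks, past the threshold, and 0.26 (SE 0.27) at 2 weeks, not past. The 2-week value was 0.57 without GelMA 2W replicate 3. The 4-week call was lost on dropping replicate 2 (0.83) or 3 (0.99) of MFN+GelMA 4W, or replicate 1 (1.002) or 2 (0.70) of GelMA 4W, and with the count-like columns (0.85). All 4 groups overlapped with their neighbours in the order of means. Fn1 over Sparc, genes that also went opposite ways at 4 weeks, was 0.365 to 0.383 in MFN+GelMA 4W libraries and 0.0883 to 0.150 in GelMA 4W libraries.

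**Figure D3:**
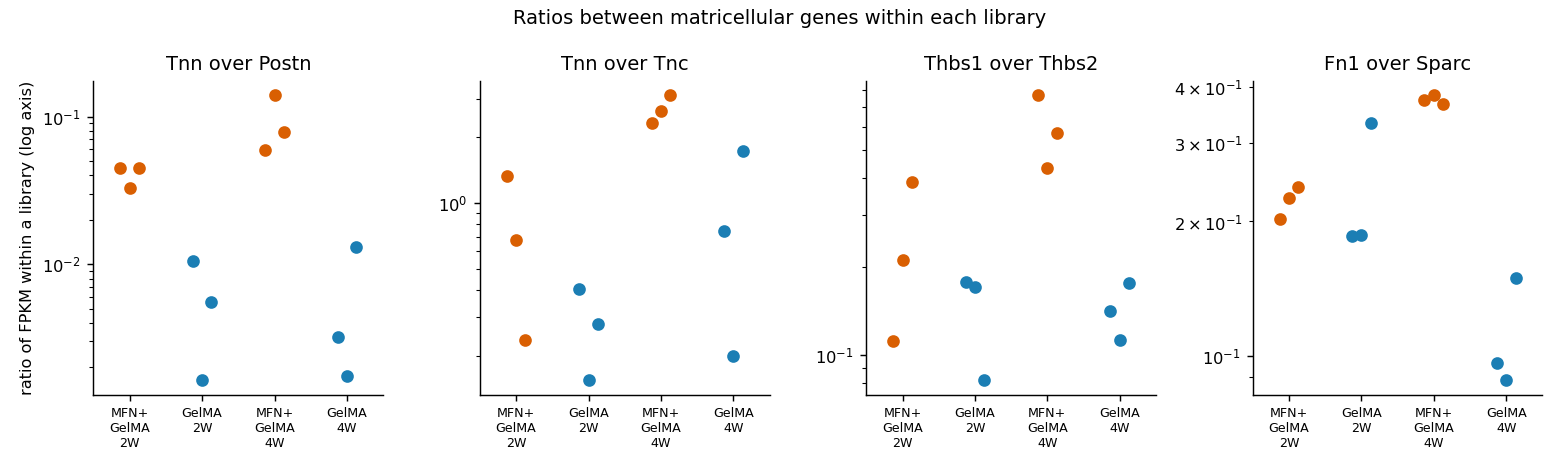
Ratio of the FPKM of 2 genes within each library (y axis, log scale), 1 point per library, in the 4 groups (x axis), MFN+GelMA in orange and GelMA in blue. In all 4 panels the MFN+GelMA 4W libraries lie above the GelMA 4W libraries, as for Fn1 over Sparc with 0.365 or more against 0.150 or less. For Tnn over Postn and Fn1 over Sparc this follows from the single genes, which lie apart in opposite directions at 4 weeks. The genes were chosen with these values known, so the ratios are a description.

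Over time within MFN+GelMA, Tnc, Thbs4, Postn and Sparc were past the threshold as lower at 4 weeks, and 0 of the 10 as higher. For Sparc this call was lost with no filter on low values (-0.70) and with the count-like columns (-0.71). Of all genes tested 8.11% were past it as lower and 11.2% as higher. At an unadjusted p under 0.05 there were 7 of the 10, and 32.8% of all genes. By libraries alone, 5 of the 10 lay wholly below at 4 weeks (17.6% of all genes) and Comp and Cilp wholly above (20.1%). The smallest log2 fold changes were those of Tnn and Fn1, at 0.39 and 0.05. Without the 3 libraries set apart above, Thbs2 was past the threshold too as lower, and Cilp as higher, with 2540 of all genes past it, beside 2367 with all libraries.

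In GelMA alone none of the 10 genes was past the threshold between weeks by limma, and at an unadjusted p under 0.05 there were 4, and 18.2% of all genes. Of all genes tested 0.497% were past it as higher and 1.74% as lower. By libraries alone, Sparc lay wholly above at 4 weeks (10.3% of all genes) and Tnc wholly below (14.2%). Sparc stood at 6579 ± 1135 FPKM in GelMA 4W and 4886 ± 169 FPKM in GelMA 2W (SD, n = 3 each).

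Ranked by mean, the 4 groups took a different order for different genes. Tnc and Thbs4 ran from MFN+GelMA 2W, the highest, over GelMA 2W and MFN+GelMA 4W to GelMA 4W. Thbs1 and Comp ran from MFN+GelMA 4W over MFN+GelMA 2W and GelMA 4W to GelMA 2W. Cilp and Postn were highest in GelMA 2W and next in GelMA 4W, and lowest in MFN+GelMA 2W (Cilp) or MFN+GelMA 4W (Postn). Sparc ran from GelMA 4W over MFN+GelMA 2W and GelMA 2W to MFN+GelMA 4W. Neighbours in these orders did not overlap at the top step for Tnc and Comp, at the middle step for Thbs1, Cilp and Sparc, and at the bottom step for Tnc, Thbs4, Postn, Cilp and Sparc. At the other steps the libraries overlapped.

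Together the 10 genes made up 0.762% to 1.06% of summed FPKM in MFN+GelMA 4W libraries and 1.11% to 1.72% in GelMA 4W libraries. At 2 weeks they made up 1.37% to 1.56% in MFN+GelMA and 1.14% to 1.52% in GelMA. Sparc, Postn and Fn1 supply nearly all of this share, so it says little of the tenascins.

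Some cell type markers differed between the materials at 4 weeks, when 15.3% of all genes tested were past the threshold as higher and 9.27% as lower. The lists were chosen with earlier results of these data known, so the counts are a description. Of 10 tested fibroblast markers 5 were lower in MFN+GelMA 4W (Dpt, Dpp4, Pdgfra, Dcn and Pi16) and 2 higher (Col6a1 and Lum). Their summed level was 4646 to 5009 FPKM in MFN+GelMA 4W and 5532 to 8190 FPKM in GelMA 4W. Of 11 macrophage markers 5 were higher and 0 lower, with 21982 to 24024 FPKM in MFN+GelMA 4W and 7490 to 14634 FPKM in GelMA 4W. Of 9 endothelial markers 4 were lower, with 126 to 160.1 FPKM in MFN+GelMA 4W and 237 to 365 FPKM in GelMA 4W. Of 11 myofibroblast and smooth muscle markers 1 was higher (Tpm1) and 3 lower (Myh11, Myl9 and Cnn1), with 449.6 to 594 FPKM in MFN+GelMA 4W and 471 to 547 FPKM in GelMA 4W. The median log2 fold change of the 11 was -0.80. Tpm1, at a mean of 219 FPKM in MFN+GelMA 4W and 121 FPKM in GelMA 4W, made up much of the sum. Of 5 tested tendon markers 1 was higher (Col12a1) and 3 lower (Tnmd, Fmod and Thbs3), with 82.6 to 100.3 FPKM in MFN+GelMA 4W and 81.4 to 138 FPKM in GelMA 4W over all 8. Of 6 tested Schwann cell markers 2 were higher (Ncam1 and Pmp22) and 1 lower (S100b), with 375 to 436 FPKM in MFN+GelMA 4W and 282 to 489.6 FPKM in GelMA 4W over all 7. Of 8 adipocyte markers 0 were past the threshold, with 4805 to 5945 FPKM in MFN+GelMA 4W and 2191 to 11437 FPKM in GelMA 4W. These sums do not follow the list as a whole, whose median log2 fold change was -2.71. The mean of log2(FPKM + 1) over the 8 was 2.20 to 2.94 in MFN+GelMA 4W and 3.24 to 8.31 in GelMA 4W. In tissue RNA, fewer cells of a type and less RNA per cell cannot be told apart, and the part of these cell types in the differences of the 10 genes was not tested.

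How the genes varied together over the 12 libraries is given as a description, since the libraries share the 4 group levels. Pearson's r of log2(FPKM + 1) was 0.85 for Tnn with Thbs1, 0.82 for Tnc with Thbs4, 0.71 for Postn with Sparc and -0.90 for Postn with Comp. With the group means removed, these became 0.47, 0.37, 0.45 and -0.57. Within groups the closest pair was Thbs4 with Fn1, at 0.82. Much of this value came from libraries set apart above. GelMA 2W replicate 3 was the highest of its group for both genes (8.86 FPKM of Thbs4 and 1680 FPKM of Fn1). GelMA 4W replicate 2 was the lowest of its group for both (0.652 and 494 FPKM).

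The genes of the whole table whose pattern over the 12 libraries was most like each of the 10 were also found by r. For Tnn they were Slc20a1 (0.970), P2ry2 (0.956) and Plod2 (0.944), the last encoding a collagen lysyl hydroxylase. For Tnc they were Cd14 (0.940), Sod2 (0.937) and Lrrc8c (0.934), the first a receptor for bacterial lipopolysaccharide on macrophages. For Thbs1 they were Abracl, Bcat1 and Rai14, at 0.934 to 0.970. For Thbs2 the closest was Lox (0.943), which encodes the enzyme that cross-links collagen. For Postn they were Zfp521 (0.972), Prrx2 (0.953) and Cdon (0.948). For Cilp they were Stxbp6 (0.941), Gfra1 (0.909) and Zic1 (0.909), and for Sparc Cgref1, Dbn1 and Ube2o, at 0.952 to 0.960. For Thbs4, Comp and Fn1 the closest were Ddb1 (0.941), Dlst (0.921) and Myo9b (0.922).

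Other matricellular genes also went both ways at 4 weeks. Of 20 tested, 3 rose with MFN and 6 fell, against 15.3% and 9.27% of all genes. Thbs3, the remaining thrombospondin, fell to 5.51 ± 1.62 FPKM in MFN+GelMA 4W, against 25.0 ± 8.94 FPKM in GelMA 4W (SD, n = 3 each; log2 fold change -1.96, adjusted p = 0.000761). Thbs1 and Comp thus lay above the GelMA 4W libraries where Thbs3 lay below. Spp1, which encodes osteopontin, rose by 5.02 (adjusted p = 0.000211), and Fbln5 and Ecm1 fell, at -1.29 and -1.48. The tenascin gene Tnr had at most 0.0841 FPKM in any library, and Tnxb was not analysed here.

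Of 17 tested genes on the list of receptors, 8 rose and 1 fell at 4 weeks, and 8 were not past the threshold. Among all genes tested 15.3% rose and 9.27% fell. Itga8, the integrin chain that binds tenascin-W, stood at 7.89 ± 1.55 FPKM in MFN+GelMA 4W and 2.01 ± 0.482 FPKM in GelMA 4W (SD, n = 3 each; log2 fold change 1.57, adjusted p = 0.000434). Sdc1, a syndecan that binds fibronectin and tenascin-C, rose by 2.88 (adjusted p = 0.000191), and Itga4, a fibronectin receptor chain, by 1.82 (adjusted p = 0.000263). Ddr2, a collagen receptor, fell by 1.81 (adjusted p = 3.83e-05). These calls are from limma over all 12270 genes.

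Genes of TGF-beta, which both controls and is controlled by several of the 10, moved both ways. At 4 weeks 6 of 16 tested were higher and 5 lower, beside 15.3% and 9.27% of all genes. Ltbp1, which tethers latent TGF-beta to fibronectin and fibrillin, fell to 7.98 ± 1.04 FPKM in MFN+GelMA 4W, against 44.7 ± 9.16 FPKM in GelMA 4W (SD, n = 3 each; log2 fold change -2.33, limma adjusted p = 1.48e-05). Tgfbr1 rose by 2.13 and Tgfbr3 fell by 1.19. Tgfb2 fell by 1.70.

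Of 17 genes for proteases known to cut these proteins, 6 were higher and 3 lower at 4 weeks, beside 15.3% and 9.27% of all genes. Mmp9 and Mmp12 rose by 3.77 and 3.75, Ctsk by 1.70, and Bmp1, which processes procollagen, fell by 0.74. At 2 weeks Adamts4 was the 1 gene of the 6 lists past the limma threshold, at 4.92 ± 2.17 FPKM in MFN+GelMA 2W and 0.963 ± 0.151 FPKM in GelMA 2W (SD, n = 3 each; log2 fold change 1.53, adjusted p = 0.0341). It was past the threshold in 14 of 25 settings. With all libraries 0.497% of all genes tested were past it at 2 weeks.

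Of 10 matrix partners 1 was higher (Col12a1, whose collagen binds tenascins, at 1.71) and 3 were lower (Dcn and Fbn1, both at -1.41, and Lamb1 at -0.49). Col1a1 and Col3a1 were listed at 0 in some GelMA libraries and at high levels in others, so no fold is given for them. Of 16 inducers of the 10 genes 3 were higher and 4 lower, with Pdgfa at 1.51, Il13ra1 at 0.79, Klf4 at -1.65 and Twist1 at -1.35. For both lists the shares of all genes tested were 15.3% higher and 9.27% lower at 4 weeks. Il4 and Il13, cytokines known to induce Postn, were listed at 0 in every library.

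**Figure D4:**
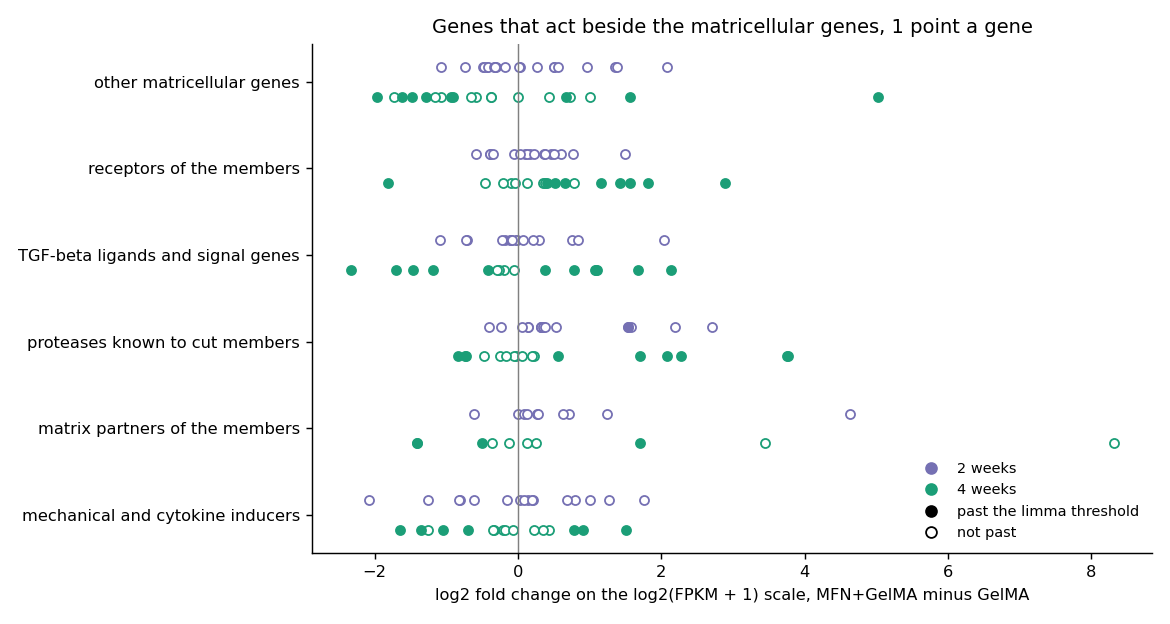
Log2 fold change on the log2(FPKM + 1) scale (x axis, MFN+GelMA minus GelMA) of the tested genes of 6 lists (rows), 1 point per gene, at 2 weeks (purple) and 4 weeks (green), filled where past the limma threshold. At 2 weeks 1 of 96 points is filled and at 4 weeks 49 are, beside 0.497% and 24.6% of all genes tested. The open points at the far right of the matrix partners are Col1a1 and Col3a1, which were listed at 0 in some GelMA libraries.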

How the data were processed

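Per the labels' protocols, tissue RNA was taken up in TRIzol, depleted of ribosomal RNA (Ribo-Zero) and sequenced from stranded TruSeq libraries. The submitters' processing notes name cutadapt 1.9.3, HISAT2, Cuffdiff and the rn6 rat genome, and how they were set is not given in the sources used here. Per the file headers, the deposited table of 22062 gene lines gives FPKM, made by the authors, in 12 columns. The 12 other deposited columns are headed Counts, but 0.341% of their positive values are whole, so they were treated as a count-like signal and no count model was run. Depth is known only from their totals, and low genes are the least precise.

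Lines sharing a symbol were summed (233 symbols), giving 21797 genes. The 12270 genes that reached 1 FPKM in 3 or more of 12 libraries were tested with limma 3.58.1 (R 4.3.3). Values were log2(FPKM + 1), computed from the deposited FPKM. The fit had 1 mean per group, an intensity trend (8 residual and 3.28 prior degrees of freedom), a two-sided test and Benjamini-Hochberg adjustment over all genes. The 5 contrasts were the material at 2 and at 4 weeks, time in each material, and the difference between weeks. Fold changes on this scale understate those of low genes. The code was tested on simulated data. P-values reflect the spread of these libraries alone.

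The 10 genes, the 11 marker lists and the 6 lists of related genes were chosen with earlier results of these data known. Of each list the text names up to 4 genes with the smallest p among those past the threshold, and for each of the 10 genes up to 3 genes with the highest r (mean of at least 2 FPKM). Col1a1, Col3a1, Il4, Il13, Tnr and the markers at or near 0 are named as exceptions, chosen after their values were seen. Loci are rn6, as deposited, and promoters are RefSeq sequences of GRCr8, matched by symbol. The alternatives were other pseudocounts, filters, scalings, subsets of libraries, weights, a replicate block, a stricter threshold and the count-like columns.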

Additional observations from a re-analysis of the deposited data

Results flagged for a closer look

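Sparc is listed because its material difference at 4 weeks minus that at 2 weeks was past the threshold of the limma fit over all genes. The gene was chosen on these libraries, so its values are a description. Its log2 fold change was -0.83 (SE 0.16) at 4 weeks and 0.29 (SE 0.16) at 2 weeks, and the 4-week value minus the 2-week value was -1.12 (SE 0.22). At 4 weeks MFN+GelMA averaged 3680.5 ± 503 FPKM and GelMA 6579 ± 1135 FPKM, and at 2 weeks MFN+GelMA averaged 5965 ± 397 FPKM and GelMA 4886 ± 169 FPKM (SD, n = 3 each). All 3 MFN+GelMA libraries were below the GelMA libraries at 4 weeks, and all 3 were above them at 2 weeks. The call held in 23 of 25 settings, and was lost with no filter on low values (-1.12) and with the count-like columns (-1.20).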

How the results depend on the processing

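Of 50 log2 fold changes of the 10 genes, 1235 values under other settings included 0 that reversed a called sign, and 10 moved by more than the spread between libraries, 6 of them of Comp, mostly with another pseudocount. Neither scaling of the FPKM shifted the median of all genes by more than 0.056. Counts of the 10 genes past the threshold moved as follows. At 2 weeks (1) it was 0 in a fit of only the libraries compared, 3 without the 3 libraries that carried muscle, fat or little endothelium, and 0 to 2 with 1 library left out. At 4 weeks (7) it was 4 at an adjusted p under 0.01, and 5 to 8 with 1 library left out. For time in MFN+GelMA (4) it was 2 with no filter and 2 at an adjusted p under 0.01. For time in GelMA (0) it was 0 to 1 with 1 library left out, 1 being Tnc without MFN+GelMA 2W replicate 3. For the difference between weeks (1) it was 0 with no filter, 0 with the count-like columns, 3 with array weights, 3 without the 3 libraries, and 1 to 2 with 1 library left out.

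Of the listed related genes, the 2-week count (1) was 0 with a pseudocount of 0.1, a filter of 5 FPKM, only the libraries compared or an adjusted p under 0.01, 2 with the count-like columns, 3 with array weights, 9 without the 3 libraries, and 0 to 5 with 1 library left out. For time in GelMA (1) it was 0 with only the libraries compared or an adjusted p under 0.01, 2 with a filter of 5 FPKM, 6 with array weights, 8 without the 3 libraries, and 0 to 2 with 1 library left out. For the difference between weeks (22) it was 9 at an adjusted p under 0.01 and 13 to 25 with 1 library left out. The 4-week count (49) and that for time in MFN+GelMA (40) stayed within 1.5 times in these settings. The cause of these moves was not tested.

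Deviations of same-numbered libraries had r of -0.058 to 0.367, over 0.1 in 2 of 12 pairs. Those 2 were replicates 2 and 3 of GelMA 4W with GelMA 2W, at 0.312 and 0.367. Pairs of unlike numbers were not computed, so whether replicate numbers mark a shared animal or batch cannot be told. With the replicate block the 10 genes gave 1, 7, 6, 0 and 1 past the threshold for the contrasts in the order above, and the listed genes gave 0 at 2 weeks. No gene of the 10 was listed at 0, so treating such a value as missing gave nothing to compute, and a fit of only the libraries compared is the same fit for the difference between weeks.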

Other observations

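The material difference itself changed between weeks by limma for 22 of the 96 listed related genes tested, and for 14.1% of all genes tested. Fbln5, a fibulin of elastic fibres, had a 4-week minus 2-week value of -1.11 (SE 0.18, adjusted p = 0.00527), and Thbs3 of -1.98 (SE 0.42, adjusted p = 0.012). Genes of the receptor list moved both ways, with Itga4 at 1.65 (SE 0.32, adjusted p = 0.00917) and the collagen receptor Ddr2 at -1.46 (SE 0.21, adjusted p = 0.00337). Tgfb1 was at 0.96 (SE 0.15, adjusted p = 0.00466) and Ltbp1 at -1.61 (SE 0.22, adjusted p = 0.00321), all in the same limma fit. Sparc, 1 of the 10 genes, stood at -1.12.

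Over time in MFN+GelMA, 40 of the 96 listed genes changed by limma (19.3% of all genes tested), among them Smoc2, a relative of Sparc, which rose by 1.65 at 4 weeks (SE 0.21, adjusted p = 0.000562). In GelMA the 1 gene that changed was Il13ra1, which fell by 0.83 (SE 0.16, adjusted p = 0.0271), beside 2.23% of all genes tested.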
